A study of Mus musculus with 6 samples.

Results

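Genes of lipoprotein assembly, lipoprotein remodelling and lipolysis were described in mouse liver after adenoviral expression of MAFG. They were chosen by symbol, as the 9 genes Mttp, Tm6sf2, Lcat, Pltp, Lipc, Lpl, Scarb1, Lrp1 and Angptl8, which were named in 16 of the 68997 rows of the deposited table. Total RNA was sequenced from livers of wild-type (wt) C57BL/6 mice aged 10 weeks on the diet labelled NCD. Of these, 3 mice received Ad-MAFG, an adenovirus that expresses Mafg cDNA from the cytomegalovirus promoter, and 3 received Ad-CMV, the empty vector with that promoter, so livers of both groups were exposed to adenovirus. MAFG is a small MAF protein, a transcription factor that binds DNA in pairs with itself or with NRF2, NRF1 or BACH proteins. The virus drives expression in whichever liver cells it enters, and the whole tissue was sequenced, so fewer cells of a type and less RNA per cell cannot be told apart. Mafg itself was not analysed here, and the group labels were therefore not checked against it.

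Hepatocytes secrete triglyceride in very low density lipoprotein, which is built when lipid is loaded onto apolipoprotein B in the endoplasmic reticulum. In the circulation, lipoprotein lipase and hepatic lipase hydrolyse the triglyceride and phospholipid of these particles, while transfer proteins and LCAT move and esterify the lipids of high density lipoprotein (HDL). Remnants and HDL cholesterol return to the liver through endocytic receptors and through SR-BI.

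Of the 9 genes, Lpl stood higher in Ad-MAFG livers and Lcat lower, and the others differed by less. Lpl, the lipase of triglyceride-rich particles, had 30.0 FPKM (fragments per kilobase of transcript, scaled to library size) in Ad-MAFG and 14.9 FPKM in Ad-CMV livers. Both values are those of 1 listed transcript of Lpl. Lcat, the cholesterol-esterifying enzyme of HDL, had 43.8 FPKM in Ad-MAFG and 71.7 FPKM in Ad-CMV livers. The table gives 1 pooled FPKM per group, the authors' value over the mice of that group. No SD or interval could be computed from it, and depth per library is unknown. The authors' own test of each row, which the table also holds, was not used here, so whether any difference exceeds the spread between mice is not stated.

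Where several transcripts are named for a gene, the row with the highest mean FPKM is called the leading row. The strand of a row was inferred from the numbering of loci, and whether the strand setting used at assembly matched the library was not checked, so a row called opposite-strand may hold reads of the gene itself. Of the 9 genes, 8 had at least 1 FPKM in the higher group in their leading row. A gene was counted as past 1.5-fold when the ratio of FPKM + 0.1 reached that size in either direction. This held for 2 of the 8, 1 higher (Lpl) and 1 lower (Lcat), and the remaining 6 lay within 1.5-fold. Among all 7554 protein-coding genes with at least 1 FPKM, 21.1% were past 1.5-fold, 10.2% higher and 10.9% lower, so the count for the 9 genes was near the background. The median log2 ratio was -0.02 over the 9 genes and -0.05 over the 7554, whose quartiles were -0.29 and 0.22. The 9 include Mttp, which was under the minimum of 1 FPKM that the 7554 had to reach. Without Mttp the median lies between the log2 ratios of Scarb1 (-0.02) and Tm6sf2 (0.24).

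**Figure D1:**
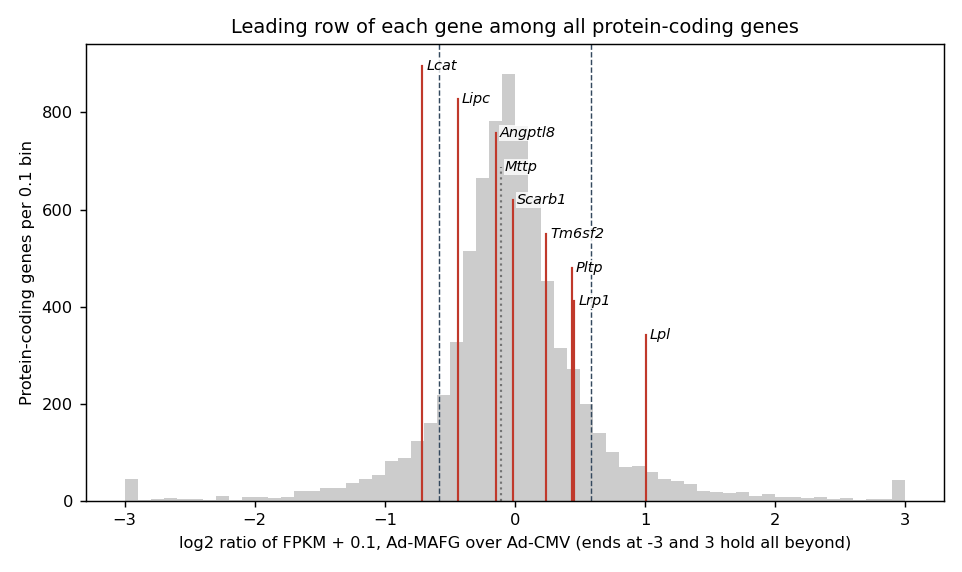
Distribution of the log2 ratio of FPKM + 0.1, Ad-MAFG over Ad-CMV, over 7554 protein-coding genes in bins of 0.1 (grey), with the leading row of each of the 9 genes as a line and 1.5-fold as dashed lines. Lpl (1.00) and Lcat (-0.71) lie outside the dashed lines, and Mttp (dotted) was under 1 FPKM in both groups.

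RefSeq promoter windows of GRCm38.p6 were available for 6 of the 9 genes (7 windows, since Lipc has a pair of starts). The 250 bases before the start were searched on both strands for TGACNNNGC, the core of the antioxidant response element that small MAF heterodimers recognise, and for TGCTGAC, a MAF half-site. TGACNNNGC was present in 1 of the 7 windows, that of Lrp1, and in 10.2% of all 32851 windows of the same length. TGCTGAC was in 0 of the 7 and in 3.81% of all windows. AGGTCA, the half-site of nuclear receptors such as HNF4A and LXR, was added after the values had been seen. It was in 1 of the 7 windows, that of the downstream Lipc start, and in 14.0% of all windows. The windows with a match are shown with the matched letters in capitals, and that of Lcat, which had no match, is shown because its level stood lowest relative to Ad-CMV. A match describes the letters and no binding was measured here. Lpl, Scarb1 and Tm6sf2 had no window in the table.
Lcat (GRCm38.p6, chr8:105943403-105943652, minus strand): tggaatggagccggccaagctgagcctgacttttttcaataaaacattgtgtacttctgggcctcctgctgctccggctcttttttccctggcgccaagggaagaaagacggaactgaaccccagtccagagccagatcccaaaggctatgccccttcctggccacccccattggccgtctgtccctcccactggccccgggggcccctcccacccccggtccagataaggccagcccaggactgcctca
Lipc (GRCm38.p6, chr9:70934809-70935058, minus strand): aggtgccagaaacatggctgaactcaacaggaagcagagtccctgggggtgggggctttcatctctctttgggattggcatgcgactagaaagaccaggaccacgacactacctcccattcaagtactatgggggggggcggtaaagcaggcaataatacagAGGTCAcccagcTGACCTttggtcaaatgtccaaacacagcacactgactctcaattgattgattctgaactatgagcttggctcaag
Lrp1 (GRCm38.p6, chr10:127621149-127621398, minus strand): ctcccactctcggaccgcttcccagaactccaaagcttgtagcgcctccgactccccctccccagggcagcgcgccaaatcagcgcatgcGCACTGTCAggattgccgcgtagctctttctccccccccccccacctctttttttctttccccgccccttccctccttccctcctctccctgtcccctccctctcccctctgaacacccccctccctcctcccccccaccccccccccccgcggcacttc
The Lipc window holds AGGTCA at base -88 and, on the other strand, TGACCT at base -76 from the start. In Lrp1 the match, GCACTGTCA as read on the printed strand, begins at base -160. Guanine and cytosine made up 60.8% of the Lcat window, 50.8% of the Lipc window and 67.2% of the Lrp1 window.

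Of the genes of assembly, Mttp encodes the microsomal triglyceride transfer protein, which loads lipid onto apolipoprotein B. Mttp (ENSMUSG00000028158, chr3:138089854-138144968, minus strand) had 0.115 FPKM in Ad-MAFG and 0.132 FPKM in Ad-CMV livers, under the minimum of 1 FPKM in both. Its only row is the first of up to 8 transcripts that the numbering leaves for that locus, the others being not analysed here, so the low value describes that transcript and not the gene. On the other strand of the same region the antisense gene Gm43691 had 4.37 FPKM in Ad-MAFG and 5.12 FPKM in Ad-CMV livers. Tm6sf2 encodes a membrane protein of the secretory pathway needed for full lipidation of very low density lipoprotein. Tm6sf2 (ENSMUSG00000036151, chr8:70072924-70080066, plus strand) had 1.45 FPKM in Ad-MAFG and 1.21 FPKM in Ad-CMV livers in its leading row, which lies on the opposite strand (log2 ratio 0.24). On its own strand Tm6sf2 had 0.522 FPKM in Ad-MAFG and 0.600 FPKM in Ad-CMV livers (log2 ratio -0.17), so its direction differed between the strands.

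Lcat (ENSMUSG00000035237, chr8:105939551-105943382, minus strand) had the highest level among the listed leading rows in both groups. Its value of 43.8 FPKM in Ad-MAFG livers was 0.610 times the 71.7 FPKM in Ad-CMV livers (log2 ratio -0.71). Of the 7554 protein-coding genes, 8.05% had a log2 ratio at or below that of Lcat. Lcat has 1 row, on its own strand, at a locus whose numbering leaves room for 1 transcript, so by that numbering its value covers the whole locus. The antisense gene Gm16156, which overlaps Lcat, had 0.533 FPKM in Ad-MAFG and 0.496 FPKM in Ad-CMV livers, far under the level of Lcat. Hepatocytes are the main source of LCAT, and the hepatocyte marker Alb had 5603 FPKM in Ad-MAFG and 4310 FPKM in Ad-CMV livers. Of 5 hepatocyte markers with at least 1 FPKM, 0 were past 1.5-fold higher and 2 lower, and the median log2 ratio was -0.46. Alb was the only marker of the 5 with a higher value in Ad-MAFG livers. The part of hepatocyte RNA in the Lcat difference was not tested.

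Pltp encodes the phospholipid transfer protein, which moves surface phospholipid from triglyceride-rich particles to HDL. Pltp (ENSMUSG00000017754, chr2:164839518-164857711, minus strand) had 8.87 FPKM in Ad-MAFG and 6.52 FPKM in Ad-CMV livers (log2 ratio 0.44), opposite in direction to Lcat and within 1.5-fold. Pltp overlaps Ctsa on the other strand, which had 25.4 FPKM in Ad-MAFG and 25.6 FPKM in Ad-CMV livers. The numbering leaves room for 12 transcripts at the Pltp locus, of which only the first was listed.

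**Figure D2:**
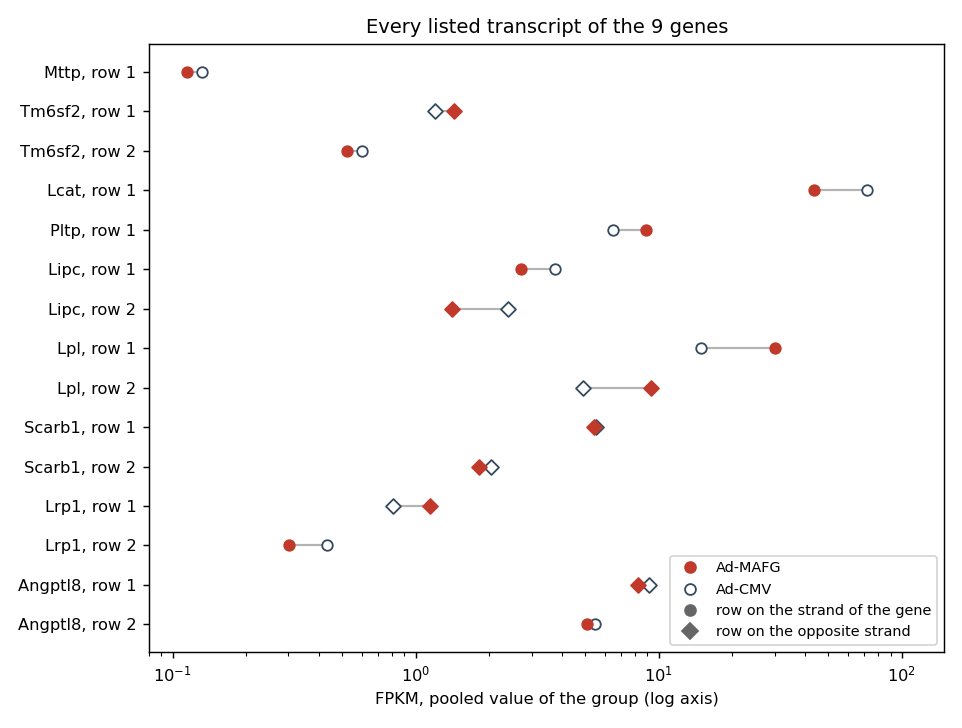
FPKM of each listed transcript of the 9 genes (log axis) in Ad-MAFG (filled) and Ad-CMV (open) livers, 1 pooled value per group, with circles for rows on the strand of the gene and diamonds for rows on the opposite strand. Lcat has the highest listed level and Lpl the widest gap, and the Scarb1 row on its own strand, at practically 0 FPKM in both groups, is not drawn.

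Lpl encodes lipoprotein lipase, made mainly in adipose tissue, muscle and macrophages and little in adult hepatocytes. Lpl (ENSMUSG00000015568, chr8:68880491-68907448, plus strand) had 30.0 FPKM in Ad-MAFG and 14.9 FPKM in Ad-CMV livers in its leading row, on its own strand, a ratio of 2.01 (log2 ratio 1.00). Its row on the opposite strand had 9.26 FPKM in Ad-MAFG and 4.91 FPKM in Ad-CMV livers (log2 ratio 0.90). Both rows were thus past 1.5-fold in the same direction. The reference transcript nearest the leading row is annotated as a target of nonsense-mediated decay, and that of the opposite-strand row as protein coding. The numbering leaves room for 7 transcripts at the locus of the leading row, of which only the first was listed. Its value describes that transcript and not the gene. A log2 ratio as high as that of Lpl was reached by 4.77% of the 7554 protein-coding genes.

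Markers of some other liver cell types were also higher in Ad-MAFG livers. Among all 7554 protein-coding genes, 10.2% were past 1.5-fold higher and 10.9% lower. Of 8 stellate and fibroblast markers with at least 1 FPKM, 6 were past 1.5-fold higher and 0 lower, and the list summed to 168 FPKM in Ad-MAFG and 91.5 FPKM in Ad-CMV livers. Their first marker, Lrat, had 16.3 FPKM in Ad-MAFG and 9.53 FPKM in Ad-CMV livers. Of 8 Kupffer cell and macrophage markers, 1 was past 1.5-fold higher and 2 lower, with sums of 129 FPKM in Ad-MAFG and 98.2 FPKM in Ad-CMV livers. The macrophage lysozyme gene Lyz2 had 49.9 FPKM in Ad-MAFG and 26.1 FPKM in Ad-CMV livers, while Marco, a scavenger receptor of Kupffer cells, had 2.10 FPKM in Ad-MAFG and 13.6 FPKM in Ad-CMV livers. Lyz2 and Marco were chosen after their values had been seen, and the pan-macrophage marker Adgre1, fixed as the first of its list, had 1.48 FPKM in Ad-MAFG and 1.19 FPKM in Ad-CMV livers. The adipocyte markers Adipoq, Lep and Retn were listed at 0 in both groups, and all 5 adipocyte markers summed to 0.0512 FPKM in Ad-MAFG and 0.0684 FPKM in Ad-CMV livers. The hepatocyte gene Ttr was also listed under 1 FPKM, at 0.230 FPKM in Ad-MAFG and 0.000307 FPKM in Ad-CMV livers, so a listing near 0 does not show that a gene was silent. The part of any cell type in the Lpl difference was not tested.

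The remaining lists were described for completeness. Of 5 endothelial markers 0 were past 1.5-fold (Pecam1 had 8.42 FPKM in Ad-MAFG and 10.5 FPKM in Ad-CMV livers). Of 4 cholangiocyte markers 3 were higher and 0 lower (Krt19 had 1.49 FPKM in Ad-MAFG and 0.584 FPKM in Ad-CMV livers). Of 2 neutrophil markers 1 was higher (S100a8 had 3.91 FPKM in Ad-MAFG and 3.61 FPKM in Ad-CMV livers). The exocrine pancreas list had 0 genes at 1 FPKM, and Pnlip, a paralogue of Lpl and Lipc made in the pancreas, was listed at 0.

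Lipc encodes hepatic lipase, which acts on remnants and HDL. Lipc (ENSMUSG00000032207, chr9:70798129-70934808, minus strand) had 2.73 FPKM in Ad-MAFG and 3.74 FPKM in Ad-CMV livers on its own strand (log2 ratio -0.44). On the opposite strand Lipc had 1.41 FPKM in Ad-MAFG and 2.41 FPKM in Ad-CMV livers (log2 ratio -0.73), past 1.5-fold where the leading row was not. The processed pseudogene Gm3436 overlaps Lipc on the other strand and had 0.428 FPKM in Ad-MAFG and 0.962 FPKM in Ad-CMV livers. Gm32017, which also overlaps there, had no listed value. Reads of these genes in the opposite-strand Lipc row cannot be told apart. Both Lipc rows were lower, opposite in direction to Lpl. The FPKM of Lpl was accordingly 11.0 times that of Lipc in Ad-MAFG livers and 3.99 times in Ad-CMV livers, each over the leading rows. The numbering leaves room for 3 transcripts at the locus of the leading Lipc row. The ratio therefore compares listed transcripts and not genes.

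Angptl8 encodes a secreted protein that helps to restrain lipoprotein lipase after feeding. Angptl8 (ENSMUSG00000047822, chr9:21835510-21837346, plus strand) had 8.21 FPKM in Ad-MAFG and 9.11 FPKM in Ad-CMV livers in its leading row, on the opposite strand (log2 ratio -0.15). On its own strand Angptl8 had 5.10 FPKM in Ad-MAFG and 5.49 FPKM in Ad-CMV livers (log2 ratio -0.11). Angptl8 lies within Dock6, which is encoded on the other strand and had 0.544 FPKM in Ad-MAFG and 0.387 FPKM in Ad-CMV livers. Both Angptl8 rows were above the highest listed Dock6 row, which is 1 transcript and not the gene. The opposite-strand Angptl8 row lies on the strand of Dock6, so reads of Dock6 in it cannot be told apart.

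Scarb1 encodes SR-BI, the receptor through which hepatocytes take up cholesteryl ester from HDL. Scarb1 (ENSMUSG00000037936, chr5:125277087-125341094, minus strand) had 5.44 FPKM in Ad-MAFG and 5.51 FPKM in Ad-CMV livers in its leading row, the log2 ratio nearest to 0 of the 9 genes (-0.02, and 0.03 when ratios were centred on the median of all genes). A further Scarb1 row had 1.83 FPKM in Ad-MAFG and 2.04 FPKM in Ad-CMV livers. Both lie on the opposite strand. The reference transcript nearest the leading row is a retained intron, and that of the further row is protein coding. The Scarb1 row on its own strand was at practically 0 in both groups, and the numbering leaves room for 16 transcripts there, so the level of the coding Scarb1 mRNA was not resolved.

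Lrp1 encodes a large endocytic receptor for remnants. Lrp1 (ENSMUSG00000040249, chr10:127538161-127621148, minus strand) had 1.14 FPKM in Ad-MAFG and 0.805 FPKM in Ad-CMV livers in its leading row, on the opposite strand (log2 ratio 0.46). On its own strand Lrp1 had 0.302 FPKM in Ad-MAFG and 0.431 FPKM in Ad-CMV livers (log2 ratio -0.40). Its direction therefore depended on the strand, as for Tm6sf2, and in both genes the levels were near or under 1 FPKM. The antisense gene Gm16217 overlaps Lrp1 and had 0.980 FPKM in Ad-MAFG and 1.02 FPKM in Ad-CMV livers.

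**Figure D3:**
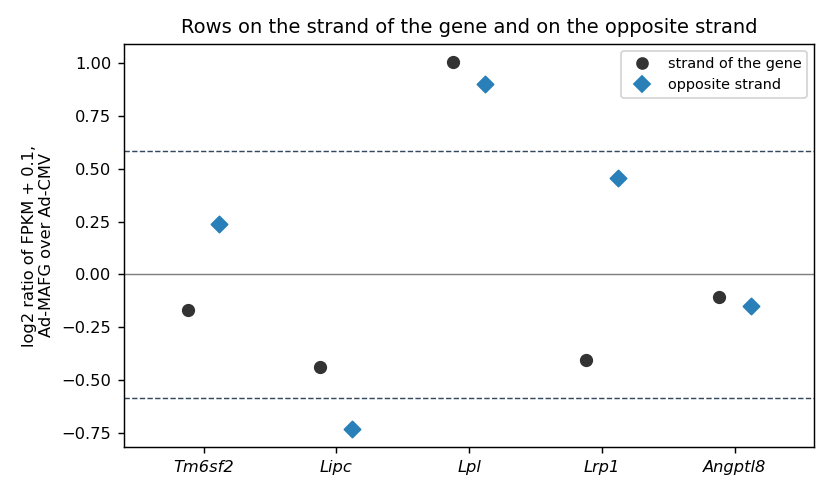
Log2 ratio of FPKM + 0.1, Ad-MAFG over Ad-CMV, for rows on the strand of the gene (circles) and on the opposite strand (diamonds), with 1.5-fold as dashed lines. Lpl is higher and Lipc lower on both strands, while Tm6sf2 (-0.17 own, 0.24 opposite) and Lrp1 (-0.40 own, 0.46 opposite) differ in direction.

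Of the 16 rows, 9 lay on the strand of their gene and 7 on the opposite strand, and the leading row was on the opposite strand for 4 of the 9 genes. Over the 7554 protein-coding genes this share was 71.0%. The order of the listed leading rows by FPKM, which is per length, was Lcat, Lpl, Pltp, Angptl8, Scarb1, Lipc, Tm6sf2, Lrp1 and Mttp in Ad-MAFG livers. In Ad-CMV livers Angptl8 stood above Pltp and the order was otherwise the same. This orders listed transcripts and not genes, since further transcripts of several of these loci were not analysed here, and without a spread it cannot be said which neighbours differ. The leading rows summed to 102 FPKM in Ad-MAFG and 114 FPKM in Ad-CMV livers. Lcat made up 43.0% of that sum in Ad-MAFG and 63.1% in Ad-CMV livers, and Lpl 29.5% in Ad-MAFG and 13.1% in Ad-CMV livers.

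Wider lists of the same pathway, without the 9 genes, were described in the same way. Their counts stand beside the 21.1% of all 7554 protein-coding genes that were past 1.5-fold. Among 11 measured lipase regulators and other lipases, 1 was past 1.5-fold higher, 3 were lower and 7 lay within, with a median log2 ratio of -0.39. The higher gene was Apoc2, which encodes the activating cofactor of lipoprotein lipase. Apoc2 had 625 FPKM in Ad-MAFG and 160 FPKM in Ad-CMV livers (log2 ratio 1.96), and the annotated gene Gm44805 overlaps it on the same strand, so their reads cannot be told apart. Angptl4, which encodes an inhibitor of that lipase, had 6.51 FPKM in Ad-MAFG and 10.9 FPKM in Ad-CMV livers (log2 ratio -0.73). Apoc1, an apolipoprotein that inhibits lipases, had 55.3 FPKM in Ad-MAFG and 90.3 FPKM in Ad-CMV livers (log2 ratio -0.71). The remaining lower gene was Lipg, endothelial lipase, with 1.78 FPKM in Ad-MAFG and 2.86 FPKM in Ad-CMV livers. In these rows Lpl and its cofactor gene were higher, and Angptl4 and Apoc1 lower, in Ad-MAFG livers. The numbering leaves room for 7 transcripts at the Apoc2 locus, of which only the first was listed. Of the 7 genes within 1.5-fold, Apoc3 (log2 ratio -0.44), Apoa5 (-0.43), Gpihbp1 (-0.39) and Sel1l (-0.14) were lower. The others, Lmf2 (0.24), Lipa (0.18) and Pcsk5 (0.06), were higher. The leading rows of the 3 genes past 1.5-fold lower all lie on the opposite strand. On the strand of the gene alone, 5 genes of this list reached 1 FPKM, with 2 past 1.5-fold higher and 0 lower. There Apoc1 had 7.18 FPKM in Ad-MAFG and 7.59 FPKM in Ad-CMV livers. The Angptl4 row on its own strand had 0.0357 FPKM in Ad-MAFG and 2.45e-07 FPKM in Ad-CMV livers, far under the minimum.

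The HDL list had the lowest median of the wider lists. Of its 11 measured genes, 2 were past 1.5-fold higher, 5 lower and 4 within, and the median log2 ratio was -0.50. The lower genes include Lipg (log2 ratio -0.66), which is counted in the lipase list as well. The listed transcripts of the main HDL apolipoproteins were lower. Apoa1 had 496 FPKM in Ad-MAFG and 1195 FPKM in Ad-CMV livers (log2 ratio -1.27). Apoa2 had 661 FPKM in Ad-MAFG and 2159 FPKM in Ad-CMV livers (log2 ratio -1.71). The numbering leaves room for 2 transcripts at the Apoa1 locus and 5 at the Apoa2 locus, of which only the first was listed. Both values describe those transcripts and not the genes. Apoe, with room for 14 transcripts, was listed at practically 0 in both groups and was not among the measured genes. Pon1, the paraoxonase carried on HDL, had 55.3 FPKM in Ad-MAFG and 175 FPKM in Ad-CMV livers (log2 ratio -1.66), and Saa4, an HDL apolipoprotein, had 9.34 FPKM in Ad-MAFG and 18.2 FPKM in Ad-CMV livers. Lcat, whose cofactor is the product of Apoa1, lay in the same direction as these. Abca1, the transporter that lipidates nascent HDL, had 13.0 FPKM in Ad-MAFG and 9.71 FPKM in Ad-CMV livers (log2 ratio 0.41), in the direction of Pltp. The higher genes were Apoa4 and Abcg1, named after their values had been seen. Apoa4 had 87.2 FPKM in Ad-MAFG and 48.1 FPKM in Ad-CMV livers and overlaps the antisense gene Gm10680, which had 570 FPKM in Ad-MAFG and 325 FPKM in Ad-CMV livers, so the value under the name of Apoa4 is uncertain. Abcg1 had 2.24 FPKM in Ad-MAFG and 1.45 FPKM in Ad-CMV livers.

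Among 9 measured genes of assembly and secretion, 0 were past 1.5-fold higher, 1 lower and 8 within, with a median log2 ratio of -0.22. Apob, the structural protein of very low density lipoprotein, had 356 FPKM in Ad-MAFG and 443 FPKM in Ad-CMV livers (log2 ratio -0.32). Mia3, which helps export large cargo from the endoplasmic reticulum, had 8.99 FPKM in Ad-MAFG and 15.7 FPKM in Ad-CMV livers (log2 ratio -0.80). Of 14 receptor and clearance genes, 2 were past 1.5-fold higher, 0 lower and 12 within, with a median log2 ratio of 0.21. As for assembly, that count was not above the background of 21.1%. Cd36, a fatty acid and lipoprotein receptor, had 8.41 FPKM in Ad-MAFG and 3.50 FPKM in Ad-CMV livers (log2 ratio 1.24), in the direction of Lpl. Hspg2, the proteoglycan perlecan, had 1.70 FPKM in Ad-MAFG and 0.557 FPKM in Ad-CMV livers (log2 ratio 1.46). Of 9 transcriptional regulators, 0 were past 1.5-fold higher, 1 lower and 8 within, with a median log2 ratio of -0.32. This count, too, was not above the background. Nr1h3, which encodes the sterol receptor LXR alpha, had 4.92 FPKM in Ad-MAFG and 5.49 FPKM in Ad-CMV livers. That row lies on the opposite strand, and the reference transcript nearest to it is a retained intron. On its own strand Nr1h3 had 0.0504 FPKM in Ad-MAFG and 0.0486 FPKM in Ad-CMV livers. The numbering leaves room for 10 transcripts there, so the level of the coding Nr1h3 mRNA was not resolved. Nr1h4, which encodes the bile acid receptor FXR, had 9.75 FPKM in Ad-MAFG and 16.2 FPKM in Ad-CMV livers (log2 ratio -0.73).

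**Figure D4:**
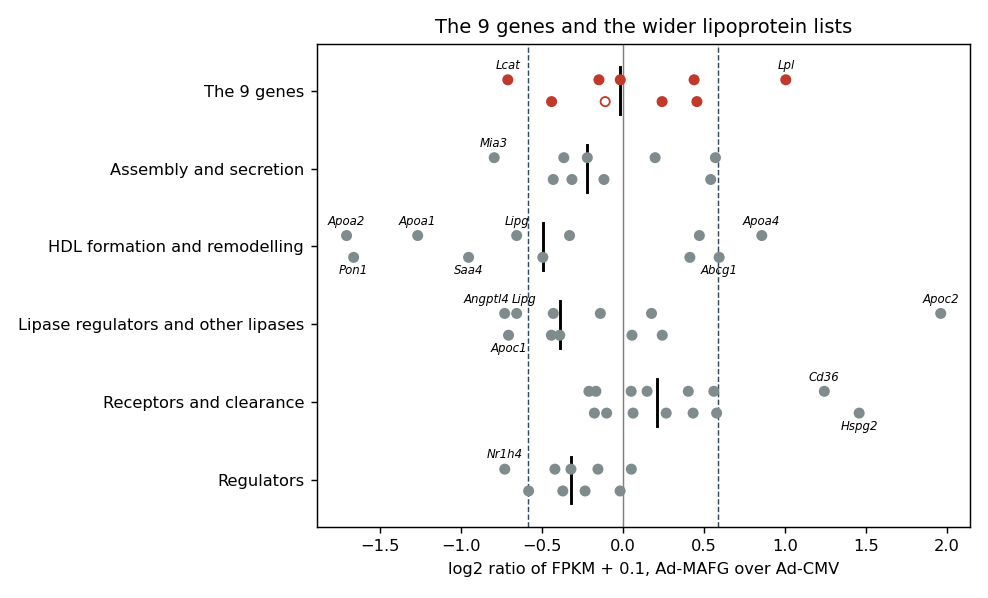
Log2 ratio of FPKM + 0.1, Ad-MAFG over Ad-CMV, for the 9 genes (red, Mttp open) and for genes of the wider lists with at least 1 FPKM (grey), with each list's median as a black bar and 1.5-fold as dashed lines. The medians are -0.02 for the 9 genes (with Mttp, which was under 1 FPKM), -0.50 for HDL, -0.39 for lipase regulators and 0.21 for receptors.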

How the data were processed

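Liver RNA was depleted of ribosomal RNA, made into strand-specific libraries and sequenced as paired reads. Per the study's methods and the submitters' processing notes, ribosomal reads were removed with Bowtie2 2.2.9, reads were aligned to GRCm38 (mm10) with STAR 2.6.0c, and transcripts were assembled with Cufflinks 2.2.1 and compared with Cuffdiff. The authors deposited 1 table with 1 pooled FPKM per group. Its remaining measurement columns hold the authors' own fold changes, test scores, p-values and q-values, which were not used. Group sizes (3 and 3 mice) follow the labels and methods, from which a figure legend differs.

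Each row is the first transcript of an assembled locus, and locus numbers run along the plus and then the minus strand of a chromosome, from which the strand of a row was inferred. Whether the strand setting at assembly matched the library was not checked. All 24914 rows listed at 0 in both groups that had an Ensembl strand (100%) lay on the strand of their gene. The row with the highest mean FPKM stood for a gene. Ratios were computed as log2 of FPKM + 0.1, Ad-MAFG over Ad-CMV, which understates differences of low genes. The background was the 7554 of 21235 protein-coding genes with at least 1 FPKM in the higher group. The ratio and the count past a fold (Python 3.11.15, pandas 2.3.3, NumPy 2.4.6) were tested on simulated data without noise.

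The 9 genes and all lists were chosen with earlier results of these data known. Named genes were the 9 genes with every row, the first gene of each wider list, up to 4 genes per list with the largest ratios past 1.5-fold, and the first marker of each cell type. The measured genes of the lipase list were named in full. Motifs were searched in RefSeq promoters. Proteins were not analysed here, and 2 genes of the wider lists are not reported here and were left out of list counts and medians. Alternatives were other pseudocounts, minimum FPKM, fold thresholds, strands, sums over rows and centring.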

Additional observations from a re-analysis of the deposited data

How the results depend on the processing

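The count past 1.5-fold stayed at 2, while the number of the 9 genes considered and the background share changed. Under pseudocounts of 1 and 0.01 it was 2 of 8 (background 13.9% and 22.3%). Without a minimum FPKM it was 2 of 9 (14.9%), and with a minimum of 5 it was 2 of 5 (26.1%). With FPKM summed over rows it was 2 of 8 (21.2%), and after centring 2 of 8 (21.0%). On the own strand alone it was 2 of 5 (25.6%), and on the opposite strand alone 2 of 6 (20.1%). With only loci of 1 transcript number, an alternative chosen after seeing the data, it was 2 of 5 (20.04%). On the opposite strand alone these were Lpl and Lipc, since Lcat has no row there. The Lipc row there may hold reads of genes that overlap it. At a threshold of 2-fold the count was 1 (background 9.20%), and at 1.2-fold it was 5, 3 higher and 2 lower (background 49.7%). The median log2 ratio, -0.02, was 0.11 over the 6 genes with a row on the opposite strand, -0.11 over all 9 on their own strand and 0.03 after centring. Of 36 alternative log2 ratios of single genes, 30 moved by less than 0.1 and 6 moved further. Many of the 30 could not move by that much, so their count does not measure robustness. Centring shifted every gene by the same amount, under 0.1. Mttp, Lcat and Pltp have 1 row each, on their own strand, and Lpl and Lipc already led on theirs. The Scarb1 row on its own strand was at practically 0 FPKM. Of the 6, Tm6sf2 was 0.12 with rows summed and -0.17 on its own strand, and Lipc -0.56 with rows summed. Lrp1 was 0.25 with a pseudocount of 1, 0.21 with rows summed and -0.40 on its own strand. Among the wider lists, the count past 1.5-fold for assembly genes was 2 with rows summed and 3 after centring, against 1. For HDL genes it was 5 with a pseudocount of 1 and 6 of 7 on the own strand, against 7 of 11. For lipase regulators it was 3 with a pseudocount of 1 and 2 on the own strand, against 4. For receptors it was 1 on the own strand and 4 after centring, against 2. For regulators it was 2 with rows summed, against 1. No paired analysis was possible because the table holds 1 pooled value per group, and for the same reason no mouse could be left out.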
